A study of Mus musculus with 6 samples.

Results

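The somatic cells of the testis hold their identity through a small set of transcription factors, and 10 of these were followed here: Sox9, Sox8, Wt1, Gata1, Gata4, Gata6, Dmrt1, Nr5a1, Nr0b1 and Nr4a1. They were chosen by gene symbol as identity factors of Sertoli and Leydig cells. That choice, and that of the gene lists below, was made with earlier results of these data known. Counts set beside the share of all genes are therefore description and not a test. All 10 were found once among the 45777 genes of the table, and all 10 passed the filter on low counts, which left 25073 genes. Testes of wild-type mice were sequenced as total RNA after 16 weeks on an ethanol-containing LDC liquid diet or on the control LDC liquid diet, at 10 ml per mouse and day. All mice first received the control diet for 5 days. Each diet had 3 libraries. The labels name no strain or age. Whether each library is a different mouse is not stated either, so the p-values rest on a spread between libraries that may be technical.

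Sertoli cells line the seminiferous tubule and nurse the germ cells, and Leydig cells between the tubules make testosterone. In the fetal gonad Wt1, Gata4 and Nr5a1 act before and around sex determination, Sox9 then fixes the Sertoli fate, and Sox8 backs it up. In the adult, Dmrt1 keeps Sertoli cells from taking on ovarian traits, Nr5a1 and Gata4 switch on genes of steroid synthesis, Nr4a1 is induced by hormone signals in Leydig cells, and Nr0b1 restrains Nr5a1.

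Total counts lay between 38935654 and 47420249 per library with a p of 0.2 between the diets (exact two-sided permutation test, where 0.1 is the smallest p that 3 libraries against 3 allow). The 10 genes together took 5903 to 6675 reads of a library. Markers of the labelled tissue were present: none of the 16 Sertoli cell markers or the 14 Leydig cell markers was under 0.5 TPM, the authors' length-scaled transcript level, in all libraries. Summed adipose markers stood at 90.8 TPM in ethanol library 1 and between 21.7 and 35.7 TPM in the other libraries. The part of adipose tissue in the results was not tested, and fold changes without that library are given below for Nr5a1, Nr0b1, Wt1 and Gata4.

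RefSeq promoter windows were at hand for 4 of the 10 genes, on GRCm38.p6, the assembly of mm10. Both shown here are the 250 bases before an annotated start site, written 5′ to 3′ on the strand of the gene. Nr0b1 is shown as a gene known to be under the control of Nr5a1, since both are compared below. Gata1 is shown because its start site matters to what a count of Gata1 means. Capitals mark matches to the motifs searched on both strands: AAGGTCA for Nr5a1, AAAGGTCA for Nr4a1 (which contains the Nr5a1 motif), for GATA factors the form AGATAA with its variant forms AGATAG and also TGATAA and further TGATAG, and for SOX factors the letters ACAAAG along with the variant ACAATG.
Nr0b1 (chrX:86191525-86191774, plus strand): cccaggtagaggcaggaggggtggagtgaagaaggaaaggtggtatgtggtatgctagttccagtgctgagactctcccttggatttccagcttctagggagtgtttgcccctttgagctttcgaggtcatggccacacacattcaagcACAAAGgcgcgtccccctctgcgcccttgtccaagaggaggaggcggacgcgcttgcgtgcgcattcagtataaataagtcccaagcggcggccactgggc
Gata1 (chrX:7967911-7968160, minus strand): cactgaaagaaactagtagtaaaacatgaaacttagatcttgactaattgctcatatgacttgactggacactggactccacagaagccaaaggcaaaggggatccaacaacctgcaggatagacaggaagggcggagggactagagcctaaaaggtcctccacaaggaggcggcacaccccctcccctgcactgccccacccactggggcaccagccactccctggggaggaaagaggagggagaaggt
The Nr0b1 window held 1 match, the SOX letters ACAAAG on the plus strand, whose first base lies 101 bases before the start site. The Gata1 window held none, nor did those of Sox8 and Nr4a1. Only exact letters were searched, so near matches are not marked. The Nr0b1 window holds gaggtca, which differs from the Nr5a1 motif AAGGTCA in its first base. Of 27025 gene windows of the same length, 25.5% held SOX letters, 27.1% GATA letters, 4.05% the Nr5a1 motif and 1.31% the Nr4a1 motif. The Gata1 start site lies 8753 bases inside the annotated gene, measured from its 5′ end, and Sertoli cells are known to use a far upstream first exon where blood cells use a nearer one. The gene-level counts add reads from both.

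Across the control testes the 10 genes spanned less than an order of magnitude per length. Wt1 led with 16.9 ± 2.25 TPM (SD, n = 3), followed by Nr0b1 at 15.6 ± 0.85, Nr5a1 at 14.9 ± 0.36 and Dmrt1 at 14.0 ± 1.90 TPM. The ranges of neighbours in this leading group overlapped. Nr4a1 stood at 9.30 ± 1.21 TPM, apart from Dmrt1. Below it came Gata4 at 7.38 ± 1.23, Sox8 at 7.33 ± 1.46, Gata1 at 5.63 ± 0.66 and Gata6 at 5.35 ± 0.67 TPM, and from Nr4a1 down to Gata6 the ranges of neighbours overlapped. Sox9 was lowest at 2.05 ± 0.32 TPM, and its range lay below that of Gata6. With ethanol Wt1 was again highest, at 20.4 ± 1.73 TPM, and Sox9 lowest, at 2.49 ± 0.45 TPM. Nr5a1 stood above Nr0b1 in that group, and Gata4 above Nr4a1, with overlapping ranges in both pairs. The factor that fixes Sertoli fate in the fetus was thus the least abundant of the 10 per length in these adult testes under either diet.

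Between the diets, Nr5a1, Gata4 and Wt1 were 1.22-fold, 1.22-fold and 1.17-fold higher in the ethanol-fed testes. They are named as the 3 at an unadjusted edgeR p under 0.05, not by size. Sox9 was also 1.17-fold higher, at an unadjusted edgeR p of 0.161. None of the 10 genes passed the test over all genes. Log2 fold changes ran from -0.17 for Gata6 to 0.29 for Nr5a1. The median over the 10 was 0.17, beside 0.0065 over the 25073 genes tested, and 7 of the 10 were above 0, beside 51.5% of all genes. In the quasi-likelihood test of edgeR 0 of the 10 had a Benjamini-Hochberg adjusted p under 0.05, as did 0% of all genes. DESeq2 called 1.32% of all genes, 203 higher and 127 lower, and 0 of the 10. More cells of a type and more RNA per cell cannot be told apart in bulk tissue. At an unadjusted p under 0.05, 3 of the 10 were higher and 0 lower, where 7.45% of all genes were higher and 5.89% lower, 13.3% in all. On CPM, read counts scaled to library size with TMM factors, the same 3 genes had all ethanol libraries above all controls, beside 9.76% of all genes. The count of 3 at an unadjusted p under 0.05 dropped to 1 without control library 3, where Nr5a1 was left. It was 2 without control library 1, where Nr5a1 and Wt1 were left, and 2 without ethanol library 1, where the genes were Nr5a1 and Nr0b1. In each of the other 14 alternatives it was 3; this check was chosen after the data were seen.

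**Figure D1:**
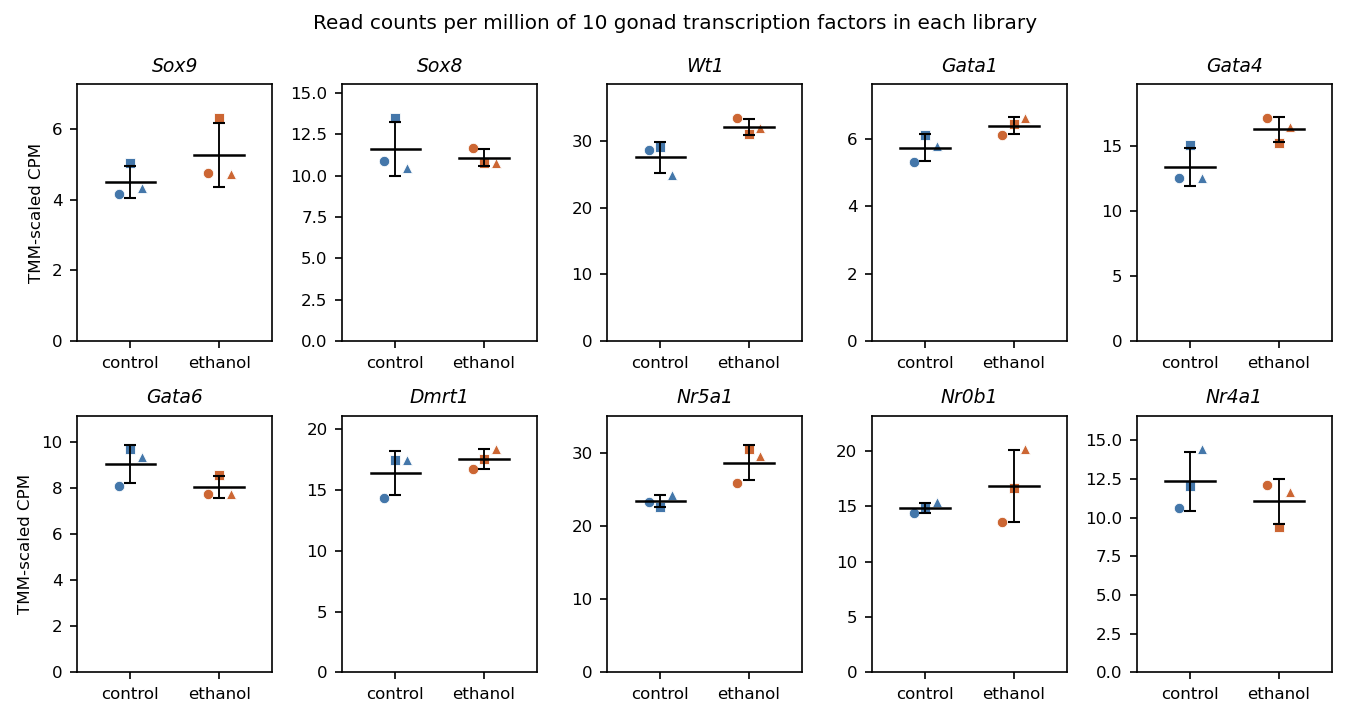
TMM-scaled CPM of each gene (vertical axes, from 0) in the control and ethanol libraries, with circles, squares and triangles for libraries 1, 2 and 3, a bar for the mean and whiskers for 1 SD over 3 libraries. The 3 ethanol libraries lie above the 3 controls for Wt1, Gata4 and Nr5a1, and the diets overlap for the other 7 genes.

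Nr5a1 (Gene ID 26423; minus strand of chr2:38692656-38714542) encodes steroidogenic factor 1, the nuclear receptor that drives the steroid enzyme genes in Leydig cells and is also expressed in Sertoli cells. It was at 23.3, 22.6 and 24.3 CPM in control libraries 1, 2 and 3 and at 25.9, 30.5 and 29.5 CPM in ethanol libraries 1, 2 and 3. The controls lay within a narrow band and every ethanol library stood above it. Its log2 fold change was 0.29 (SE 0.08, 95% interval 0.11 to 0.47, edgeR adjusted p = 0.189). Each of 17 other settings gave a value between 0.24 and 0.36, with adjusted p from 0.0993 to 0.469. The highest value, 0.36, came without ethanol library 1. On the TPM scale the diets were apart as well, at 14.9 ± 0.36 TPM in controls and 19.0 ± 1.13 TPM with ethanol.

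Nr0b1 (Gene ID 11614; plus strand of chrX:86191775-86195947) encodes DAX1, an orphan receptor that lacks the usual DNA-binding domain and represses Nr5a1. Controls were at 14.4, 14.9 and 15.4 CPM, and the ethanol libraries at 13.6, 16.7 and 20.2 CPM. The ethanol libraries thus spread from below the lowest control to above the highest. In log2 terms the difference was 0.18 (SE 0.13, 95% interval -0.10 to 0.45, adjusted p = 0.586). It moved to 0.31 without ethanol library 1 and to 0.02 without ethanol library 3. The ratio of Nr5a1 to Nr0b1 in TPM was 0.985, 0.928 and 0.965 in controls and 1.16, 1.11 and 0.893 with ethanol, so the diets overlapped (exact two-sided permutation test, p = 0.4).

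Nr4a1 (Gene ID 15370; plus strand of chr15:101253902-101274795) encodes NUR77, which luteinizing hormone signals induce within a short time in Leydig cells. It was at 10.6, 12.0 and 14.4 CPM in controls and at 12.1, 9.38 and 11.6 CPM with ethanol. The highest library was a control and the lowest an ethanol library, and the rest were mixed. The fit put the log2 fold change at -0.16 (SE 0.14, 95% interval -0.46 to 0.14, adjusted p = 0.663), and it moved to -0.04 without control library 3 and to -0.05 without ethanol library 2. Its annotated start site in the RefSeq table lies 12944 bases inside the gene, so that counts may add several first exons here too.

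Wt1 (Gene ID 22431; plus strand of chr2:105126529-105173614) encodes the Wilms tumour zinc finger protein, which Sertoli cells need throughout life. It was at 28.8, 29.1 and 24.9 CPM in controls and at 33.5, 31.2 and 32.0 CPM with ethanol. Control library 3 was the lowest of the 6, and the ethanol libraries lay close together above the controls. On the log2 scale the fold change was 0.22 (SE 0.08, 95% interval 0.04 to 0.40, edgeR adjusted p = 0.273). It was 0.15 without control library 3 and 0.19 without ethanol library 1, and in both of these fits the unadjusted p was above 0.05.

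Sox9 (Gene ID 20682; plus strand of chr11:112782210-112787757) and Sox8 (Gene ID 20681; minus strand of chr17:25565893-25570686) are paralogues that bind the same DNA letters through an HMG box. Sox9 was at 4.15, 5.03 and 4.33 CPM in controls and at 4.76, 6.31 and 4.73 CPM with ethanol. Ethanol library 2 was highest, and the other ethanol libraries lay within the control range. The fold change on the log2 scale came to 0.23 (SE 0.15, 95% interval -0.11 to 0.56, adjusted p = 0.557), and 0.08 without ethanol library 2. With 184 to 276 reads per library, Sox9 had the widest standard error of the 10 genes, and an increase of up to 1.48-fold lies within its interval. Sox8 was at 10.9, 13.5 and 10.5 CPM in controls and at 11.7, 10.8 and 10.8 CPM with ethanol. Only control library 2 stood out, above the rest. The fitted log2 fold change was -0.07 (SE 0.12, 95% interval -0.32 to 0.18, adjusted p = 0.843) and turned to 0.05 without control library 2. The ratio of Sox9 to Sox8 in TPM was 0.281 ± 0.016 in controls and 0.346 ± 0.068 with ethanol, with overlap (exact two-sided permutation test, p = 0.2).

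The GATA factors, zinc finger proteins that bind variants of the same short site, differed among themselves in direction. Gata4 (Gene ID 14463; minus strand of chr14:63198914-63271712), which Sertoli and Leydig cells express, was at 12.5, 15.0 and 12.5 CPM in controls and at 17.1, 15.2 and 16.4 CPM with ethanol. The lowest ethanol library was just above control library 2. Its log2 fold change was 0.28 (SE 0.10, 95% interval 0.06 to 0.51, edgeR adjusted p = 0.267), 0.38 without control library 2 and 0.25 without ethanol library 1. On the TPM scale ethanol library 2, at 8.74 TPM, lay just under control library 2, at 8.79 TPM, so that the diets overlapped there.

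Gata6 (Gene ID 14465; plus strand of chr18:11052510-11085636), expressed in the same cells, was at 8.10, 9.69 and 9.38 CPM in controls and at 7.76, 8.60 and 7.77 CPM with ethanol. Ethanol libraries 1 and 3 lay below every control, and library 2 within their range. In log2 terms the difference was -0.17 (SE 0.11, 95% interval -0.42 to 0.08, adjusted p = 0.561). The long noncoding gene 1010001N08Rik (chr18:11042037-11052567) overlaps only a short stretch at the 5′ end of Gata6. It had 53 to 75 reads per library over its whole length, against 308 to 430 for Gata6. Since no source used here states the strand setting of the counting, reads in that short stretch may be shared.

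Gata1 (Gene ID 14460; minus strand of chrX:7959260-7976663) marks Sertoli cells at certain stages of the seminiferous cycle and is otherwise the master factor of red blood cells. It was at 5.32, 6.13 and 5.79 CPM in controls and at 6.12, 6.45 and 6.63 CPM with ethanol. Control library 2 reached just above ethanol library 1, which was the only overlap. The fit put the log2 fold change at 0.16 (SE 0.12, 95% interval -0.10 to 0.41, adjusted p = 0.613). On the TPM scale the ethanol libraries, at 6.57, 6.56 and 6.38 TPM, were all above the highest control, though the lowest of them exceeded it only at the third decimal (6.380 against 6.376 TPM). Wt1 and Nr5a1 were apart there too, which made 3 of 10 higher in TPM and 0 lower, beside 11.7% and 4.41% of all genes. Erythroid markers were also higher in sum: the level of 9 of the 10 listed genes ranged from 54.0 to 98.1 TPM in controls and from 122.5 to 145.8 TPM with ethanol, and 5 of 8 tested members were above 0. Most of that sum was globin, with Hbb-bs at 15.4 to 36.5 and 52.7 to 60.5 TPM, while the erythroid factor Klf1 was at 0.569 to 0.739 TPM in controls and 0.335 to 0.517 TPM with ethanol. In the list of mast cells and platelets, which also use Gata1, 5 of 10 markers had 0 reads in every library and the sum was 3.73 to 6.02 TPM over all libraries. The part of blood cells in the Gata1 values was not tested.

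Within a library a ratio of TPM values does not depend on how libraries are scaled, so the genes of a family were also set against each other. The ratio of Gata4 to Gata6 was 1.44, 1.45 and 1.24 in controls and 2.07, 1.66 and 1.97 with ethanol. Every ethanol library was above every control, with means of 1.38 ± 0.12 and 1.90 ± 0.21. The ratio of Gata1 to Gata6 was also apart, at 1.05 ± 0.035 in controls and 1.32 ± 0.085 with ethanol. Both reached p = 0.1 in the exact two-sided permutation test, the smallest p of this design, and adjusted over 7 family pairs p was 0.28 for each, as for Sox9 to Sox8, and 0.4 for Nr5a1 to Nr0b1. Gata6 is the denominator of both ratios, so they are not independent. The other 5 pairs overlapped between the diets. Among them Nr5a1 to Nr4a1 was at 1.62 ± 0.21 and 2.22 ± 0.47, and Gata4 to Gata1 at 1.31 ± 0.082 and 1.44 ± 0.13.

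**Figure D2:**
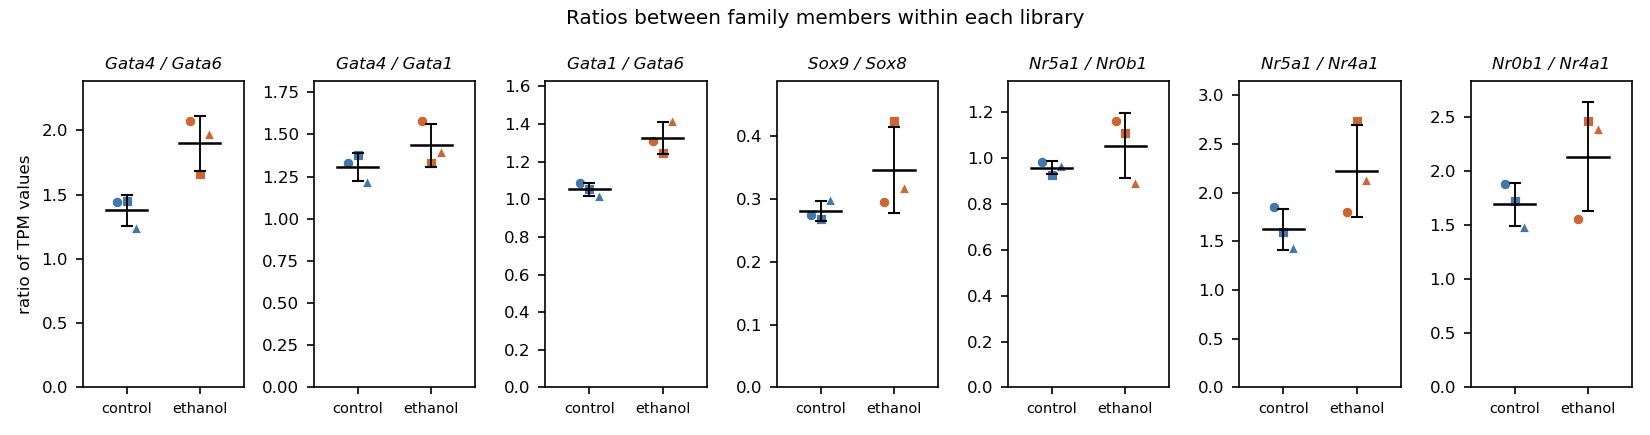
Ratio of TPM values between genes of one family (vertical axes, from 0) in the control and ethanol libraries, with circles, squares and triangles for libraries 1, 2 and 3, a bar for the mean and whiskers for 1 SD over 3 libraries. The diets are apart for Gata4 to Gata6 and Gata1 to Gata6, with means of 1.38 and 1.90 for the former, and overlap in the other 5 panels.

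Dmrt1 (Gene ID 50796; plus strand of chr19:25505618-25604328) encodes a DM-domain factor of Sertoli cells and spermatogonia, so its values here join both cell types. It was at 14.3, 17.4 and 17.4 CPM in controls and at 16.7, 17.6 and 18.3 CPM with ethanol. Control library 1 was the lowest, and the other libraries lay close together. On the log2 scale the fold change was 0.10 (SE 0.10, 95% interval -0.12 to 0.31, adjusted p = 0.723) and 0.0011 without control library 1. Summed markers of spermatogonia were at 485 to 549 TPM in controls and 473 to 493 TPM with ethanol, with overlap and 11 of 14 tested genes above 0. Dmrtb1, a paralogue described below, made up 77.2% of that sum. Without it the sum was 103 to 115 TPM in controls and 117 to 120 TPM with ethanol, so all ethanol libraries then lay above all controls. On the TPM scale 11.7% of all genes also lay above in this way, and 4.41% lay below.

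For 9 of the 10 genes the spread between libraries exceeded the error of counting reads. For Nr0b1 the coefficient of variation within a diet was 13.9%, where 3.83% would come from counting alone, and for Nr4a1 it was 14.4% against 4.46%. Gata1 was the exception, with 5.75% against 6.19% from counting. Over the 10 genes the 95% intervals of the fold change reached down to 0.729 for Nr4a1 and up to 1.48 for Sox9.

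**Figure D3:**
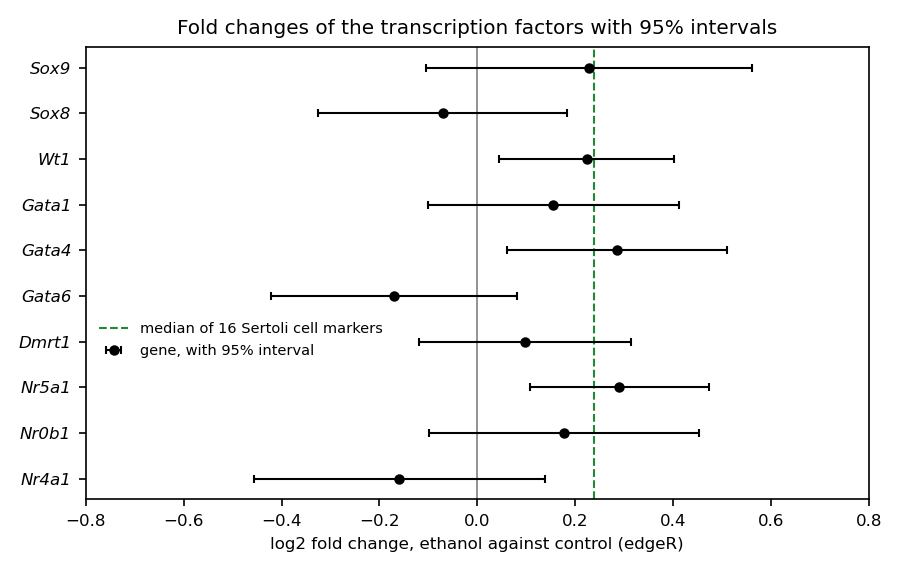
Log2 fold change of each gene, ethanol against control, from edgeR (horizontal axis), with points for the estimate and bars for the 95% interval. The intervals of Wt1, Gata4 and Nr5a1 lie above 0, and the dashed line is the median of 16 Sertoli cell markers at 0.24.

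The cells that express these factors were also read through their markers. The summed level of 16 Sertoli cell markers was 1873 to 2054 TPM in controls and 2358 to 2594 TPM with ethanol, and 14 of the 16 had a log2 fold change above 0, with a median of 0.24. None of the 10 factors is among these markers. Clu made up 29.9% of that sum, Defb19 20.5% and Cst9 14.0%. Summed Leydig cell markers were at 1784 to 2061 TPM in controls and 2069 to 2186 TPM with ethanol, with 7 of 14 above 0 and a median of 0.02. Beside both sums, 11.7% of all genes had every ethanol library above every control in TPM, and 4.41% had them below. The part of Sertoli cell content in the values of the 10 factors was not tested. Per 1000 TPM of summed Sertoli markers, Wt1 was at 8.46 ± 0.74 in controls and 8.14 ± 0.67 with ethanol, Gata4 at 3.71 ± 0.50 and 3.71 ± 0.28, and Nr5a1 at 7.52 ± 0.33 and 7.58 ± 0.88, with overlap in each. Nr5a1, Gata4, Gata6 and Nr4a1 are expressed in Leydig cells too, and Dmrt1 in spermatogonia. For these genes the scale is not a level per Sertoli cell. On that scale Gata6 stood at 2.70 ± 0.33 and 1.97 ± 0.25, Sox8 at 3.67 ± 0.61 and 2.88 ± 0.28, and Nr4a1 at 4.70 ± 0.80 and 3.46 ± 0.39. These 3 of 10 genes had all ethanol libraries below all controls, and 0 were above. Of all genes tested 42.3% were below and 1.13% above on the same scale, so a count of 3 in 10 does not set these genes apart.

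**Figure D4:**
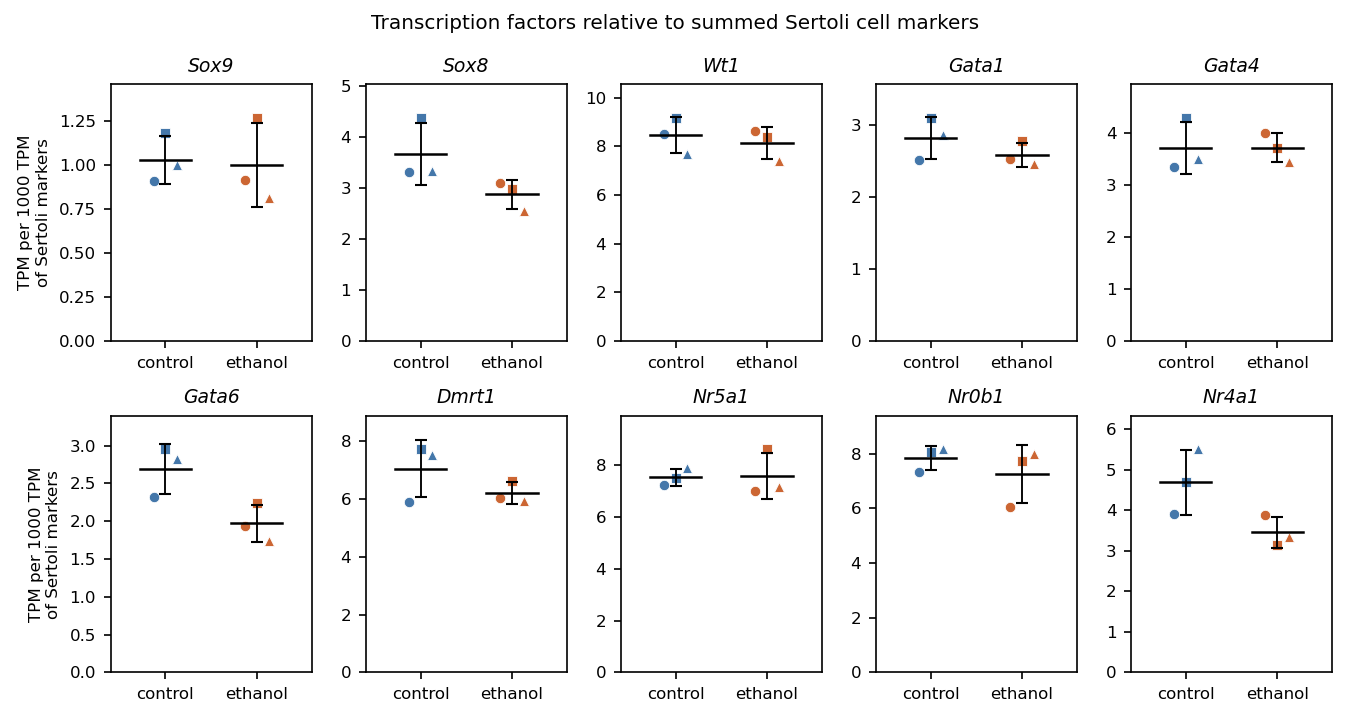
TPM of each gene per 1000 TPM of the 16 summed Sertoli cell markers of the same library (vertical axes, from 0), with circles, squares and triangles for libraries 1, 2 and 3, a bar for the mean and whiskers for 1 SD over 3 libraries. Sox8, Gata6 and Nr4a1 lie lower in the 3 ethanol libraries, and the other 7 genes, Wt1, Gata4 and Nr5a1 among them, overlap.

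Partners of the 10 factors were described as a list of 26 coregulators and other gonad regulators, of which 24 were tested. The median log2 fold change was 0.10, 16 were above 0, and at an unadjusted p under 0.05 there were 3 higher and 1 lower. Over all genes 51.5% were above 0, 7.45% higher and 5.89% lower by the same measures. Zfpm2, the FOG2 protein that binds Gata4 and is needed with it for testis formation, was at 7.33, 9.69 and 7.78 CPM in controls and at 11.9, 11.7 and 9.33 CPM with ethanol. Ethanol library 3 lay within the control range, and the log2 fold change was 0.41 (SE 0.14, edgeR adjusted p = 0.242). Rhox8, a homeobox gene of Sertoli cells, was at 1.29 ± 0.073 and 2.33 ± 0.53 CPM without overlap (adjusted p = 0.153). The direct partner of Gata1, Zfpm1, named after its values were seen, was at 6.59 ± 0.64 and 5.85 ± 0.78 CPM.

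Paralogues of the 10 factors had a median of -0.12 over 19 tested genes, which was 2.8e-05 with a filter of at least 1 CPM in 3 libraries and 0.014 without ethanol library 1. Of the 19, 7 were above 0. At an unadjusted p under 0.05 there were 1 higher and 4 lower (7.45% and 5.89% of all genes), and 3 of the 19 had all ethanol libraries below all controls, beside 9.01% of all genes. The 3 were DM-domain genes, but the family had members on both sides of 0. Dmrtc1a, the 1 paralogue higher at an unadjusted p under 0.05, was at 26.1 ± 2.09 and 29.9 ± 1.76 CPM with overlap (log2 fold change 0.20, edgeR adjusted p = 0.346), and Dmrta1 at 16.8 ± 2.0 and 19.0 ± 1.05 CPM (log2 fold change 0.17, adjusted p = 0.483). Dmrtb1, which acts in germ cells at the step from spermatogonia to meiosis, was at 276, 292 and 292 CPM in controls and at 243, 242 and 264 CPM with ethanol. The fold change on the log2 scale came to -0.20 (SE 0.06, edgeR adjusted p = 0.2). Dmrtc2, a gene of meiotic germ cells, was at 58.9 ± 1.98 and 48.7 ± 1.56 CPM, and Dmrta2 at 4.69 ± 1.26 and 3.11 ± 0.58 CPM. Dmrt1 itself, given above, overlapped between the diets, and whether it differs from these paralogues was not tested. Of the Nr4a1 paralogues, Nr4a2 had 0 to 20 reads per library and Nr4a3 38 to 92, with log2 fold changes of -0.04 (SE 0.76) and 0.43 (SE 0.28). Both were scarcer than Nr4a1, with means of at most 0.257 CPM for Nr4a2 and 1.98 CPM for Nr4a3 in a diet.

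Genes known as targets of these factors are given by the cell type they act in, and some of them, such as Trf, Cldn11 and Cyp11a1, are also among the markers above. Ptgds, listed here as a Sertoli cell target, is among the Leydig cell markers. It is 1 of the Sertoli cell targets counted as higher below. Of 17 tested Sertoli cell targets 12 were above 0 with a median of 0.15, and at an unadjusted p under 0.05 there were 6 higher and 2 lower, beside 7.45% and 5.89% of all genes, of which 51.5% were above 0. Kitl, the ligand that spermatogonia need, was at 28.6, 30.0 and 26.6 CPM in controls and at 37.0, 37.1 and 32.6 CPM with ethanol, without overlap (log2 fold change 0.32, SE 0.08, edgeR adjusted p = 0.16). Transferrin, Trf, was at 18.3 ± 1.31 and 25.3 ± 3.98 CPM, and Mro, a gene named for its male-specific expression in the fetal gonad, at 17.0 ± 2.55 and 23.4 ± 2.72 CPM, each without overlap. Amh, the textbook target of Sox9, Wt1, Gata4 and Nr5a1 in the fetal Sertoli cell, had only 6 to 33 reads per library. Its level was 0.570 ± 0.25 CPM under the control diet and 0.269 ± 0.13 CPM under the ethanol diet, with overlap and a log2 fold change of -1.09 (SE 0.47, adjusted p = 0.343).

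Of 14 Leydig cell targets 5 were above 0 with a median of -0.04. The list holds genes of steroid synthesis and also the peptide hormone gene Insl3 and the hormone receptor genes Lhcgr and Prlr. At an unadjusted p under 0.05 there were 1 higher and 5 lower, beside 7.45% and 5.89% of all genes. Cyp11a1, whose enzyme makes the first steroid from cholesterol, had 58.1 ± 14.4 CPM under the control diet and 23.5 ± 8.94 CPM under the ethanol diet, all ethanol libraries below all controls (log2 fold change -1.30, SE 0.24, edgeR adjusted p = 0.127). With DESeq2 it passed, at an adjusted p of 0.0385. Hsd17b3, the enzyme of the last step to testosterone, was at 15.2 ± 0.43 and 12.1 ± 0.37 CPM, and Hsd3b6, an enzyme of a middle step, at 44.7 ± 3.27 and 65.5 ± 15.2 CPM, each without overlap. In TPM the diets overlapped for Hsd3b6, with ethanol library 3 at 50.5 TPM and control library 2 at 51.4 TPM. Star, which carries cholesterol into the mitochondrion, was at 107, 106 and 130 CPM in controls and at 111, 166 and 97.7 CPM with ethanol, where library 2 stood far above the other 2.

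**Figure D5:**
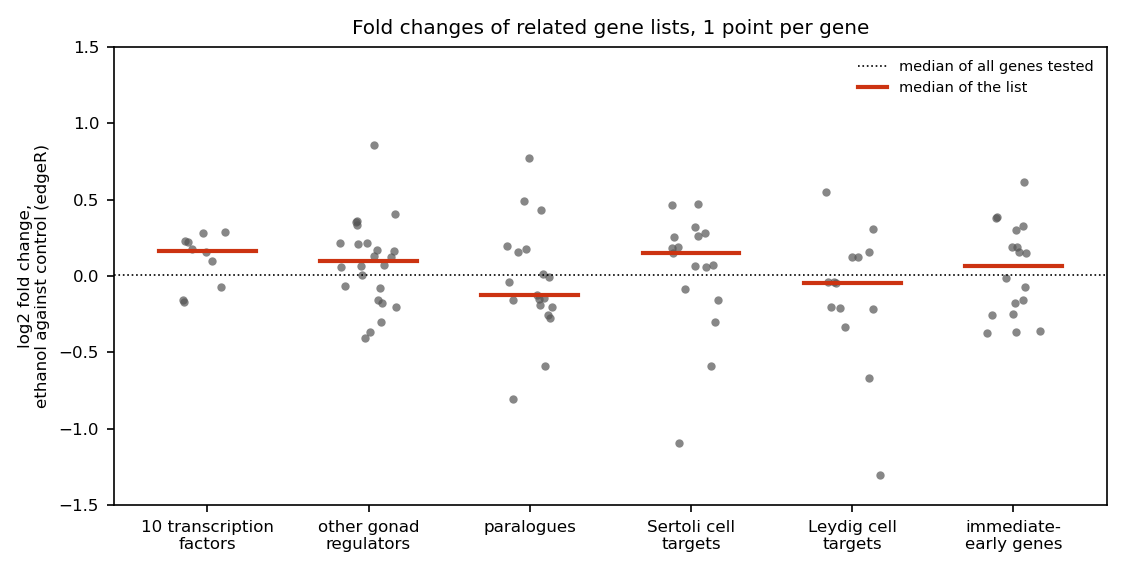
Log2 fold change, ethanol against control, from edgeR (vertical axis) for each tested gene of 6 lists, with 1 point per gene, a red bar for the median of the list and a dotted line for the median of all genes tested. The medians are 0.17 for the 10 transcription factors, 0.15 for Sertoli cell targets and -0.04 for Leydig cell targets.

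Nr4a1 is an immediate-early gene, whose transcripts appear within minutes of a stimulus or of tissue handling, so 20 other genes of this class were read beside it. Of 18 tested, 9 were above 0 with a median of 0.07, which turned to -0.024 without control library 1 and to -0.0100 with at least 1 CPM in 3 libraries. At an unadjusted p under 0.05 there were 0 higher and 3 lower (7.45% and 5.89% of all genes). Klf4, Jun and Jund were those 3. Klf4, a zinc finger factor also expressed in spermatids and Sertoli cells, was at 93.2 ± 3.85 and 77.9 ± 2.25 CPM without overlap (edgeR adjusted p = 0.153). In TPM the diets overlapped for Klf4, with ethanol library 1 at 54.6 TPM and control library 1 at 54.3 TPM. Jun, at 6.06 ± 0.89 and 4.71 ± 0.77 CPM, overlapped, and so did Jund, at 47.4 ± 8.08 and 36.6 ± 9.80 CPM. Egr1 had 22 to 53 reads per library with all ethanol libraries above all controls (log2 fold change 0.62, edgeR adjusted p = 0.386), and Fos had 5 to 14 reads per library.

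The gene most like each factor over the 6 libraries was sought among 166 genes of the lists with at least 1 CPM, as the smallest root mean square difference of log2 CPM after each gene was centred on its own mean. Gata4 was closest to the DM-domain gene Dmrta1, at a difference of 0.0574, and Wt1 was closest to the same gene, at 0.0782. For Nr4a1 it was the immediate-early phosphatase gene Dusp1, at 0.0799, and for Gata6 the immediate-early factor Klf2, at 0.0589. Nr5a1 was nearest to the DM-domain gene Dmrtc1a, at 0.0757, and Nr0b1 to the transition protein gene Tnp1 of spermatids, at 0.0861. Gata1 and Dmrt1 were both nearest to the macrophage gene Adgre1, at 0.0617 and 0.0823, Sox9 to the macrophage complement gene C1qc, at 0.0886, and Sox8 to the endothelial gene Vwf, at 0.0860. Median differences over the 166 genes were between 0.189 for Gata1 and 0.264 for Nr4a1. Each nearest gene has the smallest difference, so it lies below the median by construction. The measure is not scaled by spread, so genes that vary little lie close together. Gata1 and Adgre1 both varied within a diet no more than counting gives, at 5.75% against 6.19% and 5.46% against 5.61%. The differences describe 6 libraries that share depth and cell makeup, and no test was applied to them.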

How the data were processed

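Total RNA of 6 testis libraries was depleted of ribosomal RNA and sequenced strand-specifically, per the labels' protocols. The submitters' processing notes name HISAT2 and mm10. How reads were counted per gene, on which strand and with which annotation, is not given in the sources used here. Read counts per gene were deposited as whole numbers in columns headed Read_Count, and were taken as not normalized. FPKM and TPM were taken as given from the deposited columns of those names. There were 0 sample columns outside these libraries, and no 2 libraries were copies of each other (the lowest chi-square per gene over all pairs was 7.59, against 1 from sampling noise).

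Counts were tested with edgeR 4.0.16 in R 4.3.3: filterByExpr, TMM, the quasi-likelihood F-test without covariates and Benjamini-Hochberg adjustment over 25073 tested genes. Standard errors were |log2 fold change| over the root of F, and 95% intervals from these with about 11.6 residual degrees of freedom. The procedure was tested on simulated counts. Ratios and depth were compared by exact permutation tests.

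The 10 members and all lists were chosen with earlier results of these data known. Genes named beside them were the up to 3 of smallest p in each list with at least 1 CPM, a panel (Cyp11a1, Star, Amh, Zfpm2, Nr4a2, Nr4a3, Dmrtb1, Egr1, Fos) and the nearest patterns; 1 gene under this rule is not reported here. Alternatives were RLE, upper-quartile and total-count scaling, 2 filters, DESeq2 1.42.0, limma 3.58.1 (voom and trend, on log2 of TPM + 1, TPM + 0.1 and FPKM + 1), a replicate block and each library left out. Coordinates are from RefSeq on GRCm38.p6, strands from GENCODE M21. Marker lists not printed above were peritubular, endothelial, macrophage, rete testis, spermatocyte and spermatid; they are given with the other observations.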

Additional observations from a re-analysis of the deposited data

How the results depend on the processing

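Over 170 refits of the 10 factors, 169 kept direction and side of the threshold, 0 passed it, and the exception was Sox8 without control library 2 (0.050). For all genes, calls (higher and lower) were 203 and 127 with DESeq2, 3 and 2 with limma-voom, 5 and 10 with the replicate block, 2 and 0 with upper-quartile scaling and with at least 1 CPM in 3 libraries, and 0 to 1 and 0 to 2 without 1 library. None of the 10 factors was among the genes called in any of these. Deviations of same-numbered libraries had correlations of -0.12, 0.0083 and 0.26. Those of differently numbered libraries ran from -0.32 to 0.32. With 3 libraries per diet these values cannot decide whether the numbers pair samples. The count of factors at an unadjusted p under 0.05 was 1 to 3 without 1 library. Among other genes, Cyp11a1 passed with DESeq2 (adjusted p = 0.0385) and with the replicate block (adjusted p = 0.00126), and Dmrtc2, Trf, Kitl, Mro, Hsd3b6 and Klf4 passed with DESeq2 alone. Signs also turned for Star, Vwf and Nr4a2, all between uncalled values, and the cause was not tested. Star turned without ethanol library 2 and ran from -0.14 to 0.27 without 1 library. Vwf turned without control library 1 (-0.064), control library 3 (-0.012) or ethanol library 1 (-0.075). Without 1 library Vwf ran from -0.075 to 0.13. Nr4a2 turned with limma-voom (1.05), log2(TPM + 1) (0.0080), log2(TPM + 0.1) (0.16), log2(FPKM + 1) (8.4e-06) and the replicate block (0.15). It also turned without control library 1 (0.09) or 3 (0.69) or ethanol library 1 (0.21) or 2 (0.021). Without 1 library Nr4a2 ran from -0.62 to 0.69. The paralogue median was 2.8e-05 with at least 1 CPM in 3 libraries, -0.013 on log2(TPM + 1), -0.011 on log2(FPKM + 1), and -0.075 to 0.014 without 1 library. Medians without 1 library ran from 0.078 to 0.18 for Sertoli targets (0.23 on log2(TPM + 0.1)), from -0.15 to -0.026 for Leydig targets and from -0.024 to 0.089 for immediate-early genes (0.15 without a filter, -0.0100 with at least 1 CPM in 3 libraries). The median of all genes was 0.044 on log2(TPM + 1) and 0.058 on log2(TPM + 0.1).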

Other observations

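Summed markers of other cell types were read in the same libraries as the 10 factors. On the TPM scale used for them, 11.7% of all genes had all ethanol libraries above all controls, and 4.41% had them below. Macrophage markers were at 91.5 to 105.6 TPM in controls and 107.4 to 117.9 TPM with ethanol, without overlap, with 9 of 10 genes above 0. Lyz2 made up 27.1% of that sum, and without it the diets overlapped. Peritubular myoid markers were at 383 to 437 and 425 to 447 TPM, and endothelial markers at 24.7 to 27.0 and 25.3 to 32.4 TPM, each with overlap. Actg2 made up 66.0% of the peritubular sum, and without it the sum was 132 to 140 TPM in controls and 148 to 153 TPM with ethanol, without overlap. Epithelial markers of the rete testis and epididymis were at 43.2 to 50.5 and 43.2 to 51.2 TPM, with Pax8, Pax2, Krt18, Cdh1 and Lcn8 under 0.5 TPM in every library. Spermatocyte markers were at 1292 to 1418 and 1276 to 1414 TPM with 2 of 10 above 0 in log2 fold change, and spermatid markers at 42152 to 45629 and 43230 to 48805 TPM, also with 2 of 10 above 0.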
